A study of Homo sapiens with 6 samples.

Results

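The Hippo pathway is represented here by 10 genes of the 25365 rows of the deposited expression table: the coactivator genes WWTR1 and YAP1, the transcription factor genes TEAD1, TEAD3 and TEAD4, the kinase genes LATS1 and LATS2, and PTPN14, AMOTL2 and CTGF. They were listed by name as members of the pathway, and the list was chosen by someone who already knew the comparison reported below, in which WWTR1 and PTPN14 had large increases in FPKM. Their values are therefore given as a description, with fold changes and errors but no p-values. The cells were MDA-MB-231, a human line derived from triple-negative breast cancer, transfected with 20 nM of siRNA si-NRDE2-2, directed against NRDE2 (3 libraries), or with 20 nM of the negative control siRNA si-Control (3 libraries), and RNA was taken after 48 h. The NRDE2 protein sits in the nucleus and partners the helicase MTREX, and a single siRNA against NRDE2 was used. Poly(A) RNA was sequenced, and the authors' values are FPKM, fragments scaled by transcript length and by library size, so levels can be set beside each other between genes.

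In the Hippo pathway, the kinases encoded by STK3 and STK4 activate LATS1 and LATS2, which phosphorylate the coactivators YAP (from YAP1) and TAZ (from WWTR1) and keep them in the cytoplasm. Without that phosphorylation YAP and TAZ enter the nucleus, bind DNA through TEAD factors and switch on genes such as CTGF. PTPN14 and the angiomotin relative AMOTL2 bind YAP and hold it back, and AMOTL2, LATS2, PTPN14 and CTGF are themselves TEAD target genes, so the pathway holds negative feedback. In breast cancer cells TAZ and YAP are known for supporting migration and stem-like growth. The protein name TAZ must be kept apart from the table's row TAZ, an older symbol of tafazzin, a mitochondrial enzyme that is no part of this pathway. The levels below are of mRNA, and the activity of this pathway is set largely by phosphorylation, which was not measured.

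The members differ in 3 short 3′ UTR sequences, shown here because the members highest above control hold them. The sequence GACGTA, with the longer GACAGTA and the longer GACTGTA, was picked in an earlier scan of these same fold changes, so finding any of them in a gene with a large change is not independent evidence about that gene. Each was searched on the sense strand of the 3′ UTR of 1 transcript per gene, the coding transcript with the longest 3′ UTR in GENCODE release 29. WWTR1 held 2 copies, PTPN14 5 and TEAD1 1, and the other 7 members held 0. The sites of WWTR1 and TEAD1 and 3 of the 5 of PTPN14, 1 of each kind, are shown 5′ to 3′, with the listed sequence in capitals and up to 10 bases on each side.
WWTR1, base 456 after the stop codon: ctgtattgatGACAGTAgtaccaaatg
WWTR1, base 3244: gtgttctcatGACGTAattagaaagt
TEAD1, base 86: tcgaacgactGACTGTAaacctcacca
PTPN14, base 124: gctctctgaaGACAGTAgccaagatta
PTPN14, base 780: ccctgctggcGACTGTAccttgggtat
PTPN14, base 4339: cttgttacgtGACGTAtgggtcccaa

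The carriers have long 3′ UTRs, of 3570 bases in WWTR1, 9226 in PTPN14 and 7261 in TEAD1. YAP1 (3483 bases) and LATS1 (3576 bases) have 3′ UTRs about as long as that of WWTR1 and hold 0 copies, and the 5 other members without a copy run from 195 to 1838 bases. Of the 11101 tested genes whose 3′ UTR could be searched, 20.0% held at least 1 copy, and among those with a 3′ UTR of at least 3000 bases 46.4% did. At least 2 copies were found in 4.44% of all searched genes and in 15.2% of those with a 3′ UTR of at least 3000 bases. The median log2 fold change was 0.08 in genes with a copy and -0.03 in genes without. A match is a description of the letters and not a binding site, and whether the siRNA acts through these sequences was not tested.

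The level of NRDE2 mRNA matched every label. It was 0.230, 0.234 and 0.229 FPKM in the si-NRDE2-2 libraries, against 4.39, 4.45 and 3.80 FPKM in the si-Control libraries, a ratio of 0.0548. Estimated depth ran from 41800000 to 57400000 fragments per library, which gives each member between 538 and 19540 fragments in a library. The line's own markers were abundant, with VIM at 1113 to 1148 FPKM in si-NRDE2-2 and 1131 to 1260 FPKM in si-Control libraries and CAV1 at 217 to 235 FPKM in si-NRDE2-2 and 213 to 219 FPKM in si-Control libraries. CD44, at 181 to 185 FPKM in si-NRDE2-2 and 149 to 158 FPKM in si-Control libraries, and ANXA1, at 593 to 606 FPKM in si-NRDE2-2 and 458 to 488 FPKM in si-Control libraries, were higher in every si-NRDE2-2 library. The hormone receptor genes ESR1 and PGR stayed at or under 0.00441 FPKM in all 6 libraries, while ERBB2 was at 10.29 to 11.06 FPKM in si-NRDE2-2 and 12.6 to 12.9 FPKM in si-Control libraries. The epithelial gene EPCAM, looked for as a low gene of this line, was at 7.43 to 8.04 FPKM in si-NRDE2-2 and 7.77 to 8.45 FPKM in si-Control libraries. The summed FPKM of 4 blood cell markers was 2.51 to 2.56 in si-NRDE2-2 and 1.45 to 1.97 in si-Control libraries, nearly all of it CD14. PTPRC, CD3E and CD79A were each at or under 0.230 FPKM. The sum of 2 endothelial markers was 0.976 to 1.19 FPKM in si-NRDE2-2 and 0.529 to 0.707 FPKM in si-Control libraries, nearly all of it PECAM1, with CDH5 at or under 0.0184 FPKM. The sum of 5 fibroblast markers was 3.33 to 3.59 FPKM in si-NRDE2-2 and 2.99 to 3.22 FPKM in si-Control libraries, with DCN at or under 0.0392 FPKM. Among them PDGFRB was higher in si-NRDE2-2, at 1.44 to 1.61 FPKM against 1.13 to 1.23 FPKM in si-Control libraries, and LUM lower, at 0.329 to 0.358 FPKM in si-NRDE2-2 against 0.378 to 0.472 FPKM in si-Control libraries. COL1A2 was at 1.48 to 1.64 FPKM in si-NRDE2-2 and 1.42 to 1.54 FPKM in si-Control libraries. The part of these levels in the results was not tested. In bulk RNA, a change in the share of cells that express a gene and a change in RNA per cell cannot be told apart.

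The large difference among the coactivators was in WWTR1, while YAP1 stayed at its control level. WWTR1 had 19.9, 21.9 and 22.2 FPKM in si-NRDE2-2 replicates 1, 2 and 3, against 8.15, 7.92 and 7.66 FPKM in si-Control replicates 1, 2 and 3. Every si-NRDE2-2 library lay more than 10 FPKM above every si-Control library. The means were 21.4 ± 1.24 FPKM in si-NRDE2-2 and 7.91 ± 0.247 FPKM in si-Control libraries (SD, n = 3 each), a ratio of 2.70. The log2 fold change, on the log2(FPKM + 0.1) scale as for all that follow, was 1.42 ± 0.05 (SE). Of 11782 genes tested across the table, 18 had a larger one.

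YAP1, the paralog of WWTR1, had 42.2, 46.4 and 48.3 FPKM with si-NRDE2-2 and 44.8, 42.8 and 41.3 FPKM with si-Control. The groups overlap, and the log2 fold change was 0.09 ± 0.06. It was 0.14 without si-NRDE2-2 replicate 1, the lowest YAP1 value of its group, and then passed the threshold of the fit across all genes. Leaving out the lowest value of that group favours a rise, so nothing is read from that call. Since FPKM is scaled by length, the 2 coactivators can be added. Their sum was 67.0 ± 4.35 FPKM in si-NRDE2-2 and 50.9 ± 1.99 FPKM in si-Control libraries (SD, n = 3 each). WWTR1 made up 32.1%, 32.1% and 31.5% of it in the si-NRDE2-2 libraries and 15.4%, 15.6% and 15.6% in the si-Control libraries. YAP1 thus remained the more abundant coactivator mRNA in all 6 libraries.

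**Figure D1:**
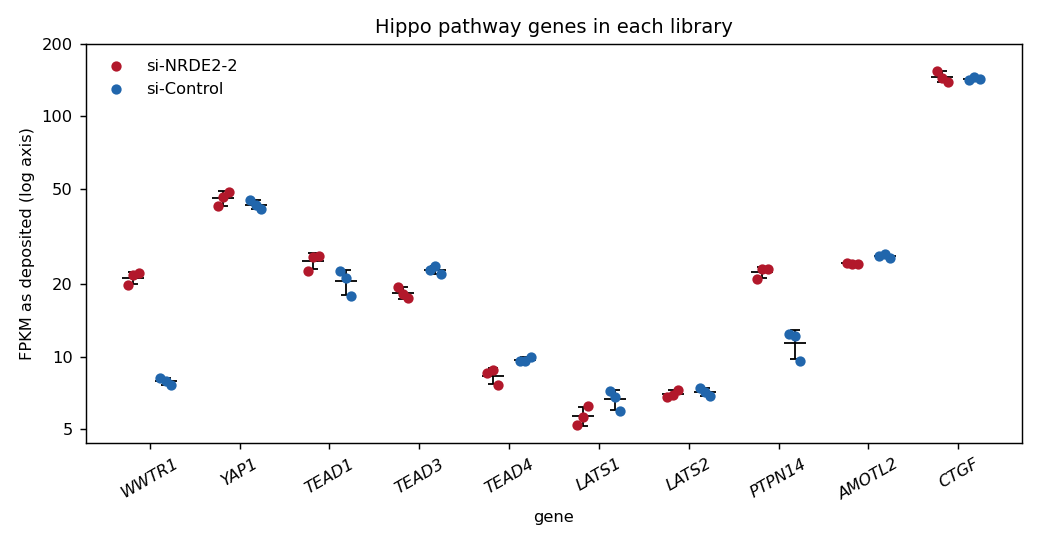
Level of each of the 10 genes in FPKM as deposited (log axis), with 1 point per library, si-NRDE2-2 left of si-Control, and the mean and SD of 3 libraries as bars. WWTR1 (21.4 against 7.91 FPKM) and PTPN14 (22.4 against 11.4 FPKM) are the genes whose groups stand far apart, while YAP1, LATS1, LATS2 and CTGF overlap.

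The TEAD factors differed in direction from one another. TEAD1 had 22.8, 25.9 and 26.3 FPKM with si-NRDE2-2 and 22.7, 21.2 and 17.9 FPKM with si-Control. The groups only just separate, the lowest si-NRDE2-2 value lying beside the highest si-Control value. The log2 fold change was 0.28 ± 0.08, and it was 0.18 without si-Control replicate 3, the lowest of all 6 libraries. TEAD3 went the other way, with 19.5, 18.2 and 17.6 FPKM in si-NRDE2-2 and 23.05, 23.8 and 22.1 FPKM in si-Control libraries. Its groups do not overlap, and the log2 fold change was -0.32 ± 0.05. TEAD4 had 8.59, 8.83 and 7.62 FPKM with si-NRDE2-2 and 9.61, 9.61 and 10.02 FPKM with si-Control, with a log2 fold change of -0.22 ± 0.06 and no overlap. Without si-NRDE2-2 replicate 3, the lowest TEAD4 value, it was -0.16.

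TEAD2, the family's remaining gene and no member of the list, averaged 9.72 ± 0.719 FPKM in si-NRDE2-2 and 9.67 ± 0.399 FPKM in si-Control libraries (SD, n = 3 each; log2 fold change 0.01 ± 0.06, limma adjusted p = 0.949). The summed level of the TEAD genes was 61.5 ± 0.585 FPKM in si-NRDE2-2 and 63.0 ± 2.94 FPKM in si-Control libraries, so the total differed by less than the spread between si-Control replicates. Within that total TEAD1 held 40.6% ± 2.78 in si-NRDE2-2 and 32.6% ± 2.43 in si-Control libraries, and TEAD3 held 29.98% ± 1.90 in si-NRDE2-2 and 36.5% ± 1.09 in si-Control libraries. TEAD3 was the most abundant TEAD mRNA in each si-Control library, and TEAD1 in each si-NRDE2-2 library.

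**Figure D2:**
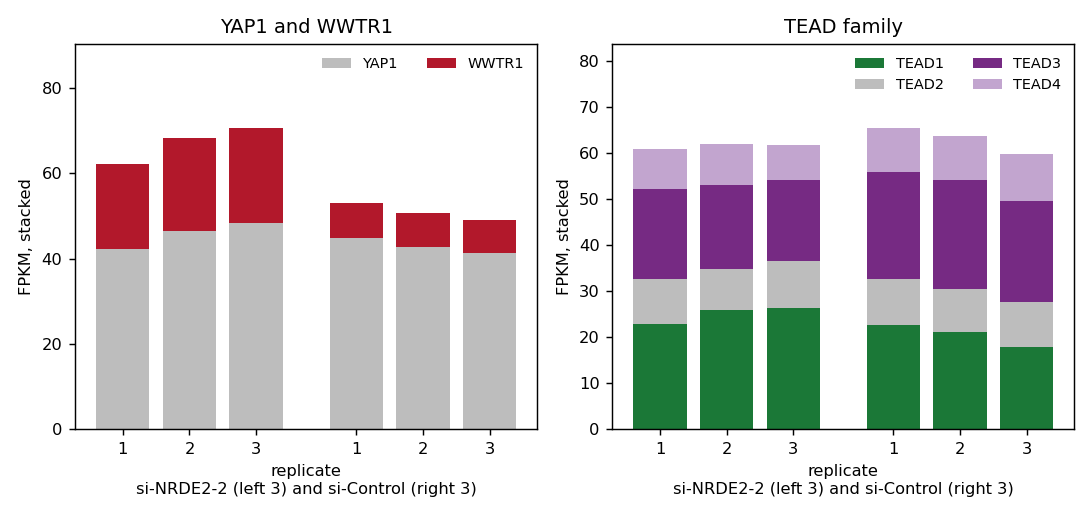
Stacked FPKM of the coactivator genes (left) and of the TEAD genes (right) in each library, si-NRDE2-2 in the left 3 bars and si-Control in the right 3. The WWTR1 segment is 31.9% of its bar on average in si-NRDE2-2 and 15.5% in si-Control libraries, whereas the TEAD totals are alike and TEAD1 takes a larger part with si-NRDE2-2.

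The genes that restrain YAP and TAZ did not share one pattern, and PTPN14 stood apart. PTPN14, a non-receptor tyrosine phosphatase that binds YAP through its PPxY motifs, had 21.1, 23.1 and 23.1 FPKM in si-NRDE2-2 replicates 1, 2 and 3 and 12.5, 12.2 and 9.58 FPKM in si-Control replicates 1, 2 and 3. All si-NRDE2-2 libraries lay above all si-Control libraries. The means were 22.4 ± 1.17 FPKM in si-NRDE2-2 and 11.4 ± 1.58 FPKM in si-Control libraries (SD, n = 3 each), a ratio of 1.97, with a log2 fold change of 0.98 ± 0.09. It was 0.86 without si-Control replicate 3, whose PTPN14 value was the lowest, and 73 tested genes had a larger rise.

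LATS1, one of the kinases that phosphorylate YAP and TAZ, had 5.20, 5.64 and 6.23 FPKM with si-NRDE2-2 and 7.18, 6.81 and 5.95 FPKM with si-Control. The groups overlap through si-NRDE2-2 replicate 3 and si-Control replicate 3, and the log2 fold change was -0.22 ± 0.08. It passed the threshold without either of these libraries, at -0.29 without si-NRDE2-2 replicate 3 and -0.30 without si-Control replicate 3. Each lay nearest the other group, so nothing is read from a call made without it. LATS2, the other such kinase, had 6.81, 6.97 and 7.30 FPKM with si-NRDE2-2 and 7.43, 7.14 and 6.89 FPKM with si-Control, with overlap and a log2 fold change of -0.03 ± 0.06. AMOTL2 had 24.6, 24.4 and 24.4 FPKM with si-NRDE2-2 and 26.3, 26.8 and 25.8 FPKM with si-Control. That difference, a log2 fold change of -0.10 ± 0.04, was small but without overlap. It passed the threshold without si-Control replicate 3, at -0.12, but that library lay nearest the si-NRDE2-2 group, so nothing is read from that call.

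CTGF, a secreted matricellular protein gene (now named CCN2) and a standard readout of YAP, TAZ and TEAD activity, was the most abundant member and did not follow WWTR1. It had 155, 145 and 139 FPKM in si-NRDE2-2 and 142, 146 and 143 FPKM in si-Control libraries. The si-NRDE2-2 values lie on both sides of the si-Control values, and the log2 fold change was 0.03 ± 0.05. Without si-NRDE2-2 replicate 1, the highest value, it was -0.02. The RefSeq promoter of CTGF is shown because it carries the known TEAD recognition hexamer. Both strands of the 250 bases before the start site were searched for GGAATG and its reverse complement CATTCC, and CTGF held 3 copies, at -169, -104 and -95 from the start site. The stretch is chr6:131951442-131951561 of GRCh38.p14, minus strand, 5′ to 3′, with the hexamers in capitals.
CTGF promoter: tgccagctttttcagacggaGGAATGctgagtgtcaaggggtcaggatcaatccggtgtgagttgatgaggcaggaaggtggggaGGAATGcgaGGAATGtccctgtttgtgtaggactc

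At least 1 such hexamer lay in 11.9% of 35116 RefSeq promoters and at least 3 in 0.0826%. Promoters were found for 8 members. PTPN14 and YAP1 held 1 hexamer each, as did 1 of the 2 promoters listed for AMOTL2, and the promoters of WWTR1, TEAD3, LATS1 and LATS2 held 0. WWTR1 and PTPN14, the members highest above control, thus differ in this count, and CTGF, with most hexamers, was at its control level. No promoter was found for TEAD1 or TEAD4, and sites farther from the start site were not searched. Whether these hexamers bear on a gene's change, or on its response to TEAD factors, was not tested.

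Of the 10 members 3 were past an adjusted p of 0.05 upward (WWTR1, TEAD1 and PTPN14) and 2 downward (TEAD3 and TEAD4) in the fit across all genes. Of all tested genes 44.0% were past it, 20.9% upward and 23.0% downward, and since the members were listed with this comparison known, nothing is read from their count. The libraries of one group lay entirely above or below the other's for 6 members and for 53.5% of all tested genes. The members' median log2 fold change was 0.0007, that of all tested genes -0.02. The strongest members, WWTR1 and PTPN14, lay outside the 5th to 95th percentile of all tested genes, -0.41 to 0.47, and the other 8 inside it. The 3 members past the threshold upward are those that hold a listed 3′ UTR sequence. Both the members and the sequences were picked with these fold changes known, so nothing is read from this match either. PTPN14 holds 5 copies, WWTR1 2 and TEAD1 1, counted in 1 transcript per gene, and a relation of copy number to the size of a change was not tested. The call of TEAD1 was lost without si-NRDE2-2 replicate 2 or 3 (log2 fold change 0.25 and 0.24), and that of TEAD4 without si-NRDE2-2 replicate 3 (-0.16).

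**Figure D3:**
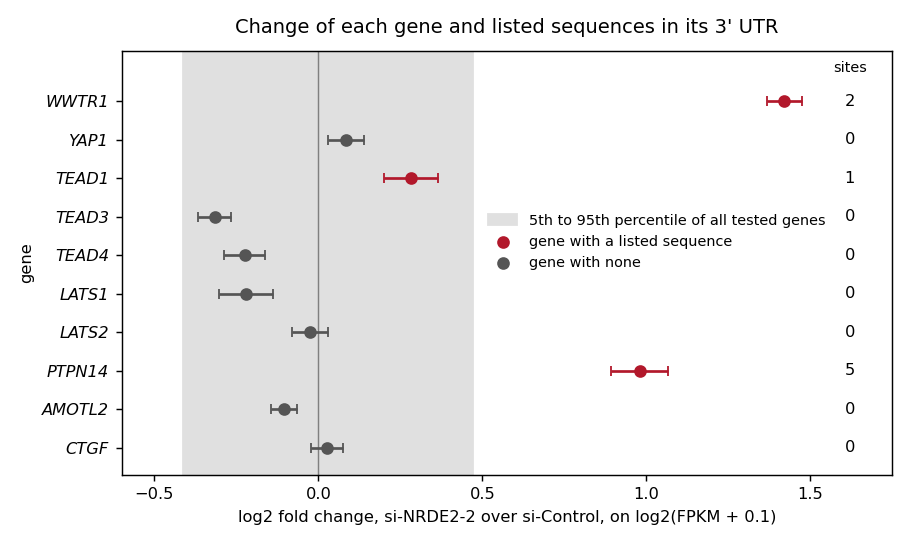
Log2 fold change of each gene, si-NRDE2-2 over si-Control, on the log2(FPKM + 0.1) scale with its SE, coloured by whether its 3′ UTR holds a listed sequence, with the number of copies at the right. WWTR1 (1.42) and PTPN14 (0.98) lie beyond the grey band that spans the 5th to 95th percentile of all tested genes, and YAP1 (0.09), LATS2 (-0.03) and CTGF (0.03) lie near 0.

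In si-NRDE2-2 libraries the order of mean levels was CTGF, YAP1, TEAD1, AMOTL2, PTPN14, WWTR1, TEAD3, TEAD4, LATS2 and LATS1. The values of TEAD1 overlap those of AMOTL2 and PTPN14, and those of PTPN14 overlap those of WWTR1, so their order is not resolved. In si-Control libraries it was CTGF, YAP1, AMOTL2, TEAD3, TEAD1, PTPN14, TEAD4, WWTR1, LATS2 and LATS1, with overlap between TEAD3 and TEAD1, PTPN14 and TEAD4, and LATS2 and LATS1. By mean level WWTR1 thus stood between PTPN14 and TEAD3 with si-NRDE2-2, at 21.4 FPKM, and between TEAD4 and LATS2 with si-Control, at 7.91 FPKM.

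The genes whose mean-centred log2 values over the 6 libraries lay nearest to those of WWTR1, by Euclidean distance, were FAM49B, RNF144A, JAG1, CALU and TAPT1, at distances of 0.10 to 0.15. FAM49B averaged 26.8 ± 1.08 FPKM in si-NRDE2-2 and 10.00 ± 0.198 FPKM in si-Control libraries (SD, n = 3 each). JAG1, a Notch ligand gene, averaged 52.9 ± 0.951 FPKM in si-NRDE2-2 and 19.0 ± 0.358 FPKM in si-Control libraries. Nearest to PTPN14 were STS, COL6A3, KATNAL1, SSFA2 and GPRIN1, at distances of 0.12 to 0.23. STS, which encodes steroid sulfatase, averaged 5.45 ± 0.197 FPKM in si-NRDE2-2 and 2.68 ± 0.259 FPKM in si-Control libraries. A listed 3′ UTR sequence was held by FAM49B, RNF144A, JAG1, TAPT1, STS, KATNAL1 and SSFA2, and by neither CALU, COL6A3 nor GPRIN1. Of the 66 searched genes past the threshold and at least 2-fold higher, 43 held one. The sequences were picked from these same fold changes, so nothing particular to these neighbours is read from it. With 2 groups in 6 libraries this likeness mostly reflects a difference of the same size between the groups.

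Beyond the members, 93 other genes of the pathway were read in 4 lists. Of 89 tested, 23 rose and 19 fell by the limma test (adjusted p under 0.05), which is 47.2% against 44.0% of all tested genes. None of these 42 changed 2-fold. The shares of all tested genes that rose and fell, 20.9% and 23.0%, are the background for each list's counts below. Copies of a listed 3′ UTR sequence were held by 14 of the 23 that rose, by 3 of the 19 that fell and by 29 of all 89. Across all searched genes 20.0% held a copy. Because the sequences were picked from these same fold changes, the difference between genes that rose and fell is not independent evidence. With all carriers left out of the fit, so that they cannot be counted, 9 genes of the lists rose and 16 fell. That restates the counts of carriers and is no further result about the sequences.

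Of 33 tested upstream kinases and adaptors 8 rose and 5 fell, with a median log2 fold change of 0.07. The core kinase genes were near their control levels: STK3 averaged 11.9 ± 0.405 FPKM in si-NRDE2-2 and 11.2 ± 0.306 FPKM in si-Control libraries, and STK4 averaged 16.6 ± 0.610 FPKM in si-NRDE2-2 and 17.8 ± 0.901 FPKM in si-Control libraries (SD, n = 3 each; limma adjusted p = 0.234 and 0.141). NF2, which encodes the upstream activator merlin, was low throughout, at 1.60 ± 0.103 FPKM in si-NRDE2-2 and 1.54 ± 0.0932 FPKM in si-Control libraries (adjusted p = 0.661, limma). These 3 genes were chosen for their place in the pathway after their values were seen. The polarity scaffold gene DLG1 rose by 0.35 ± 0.05 on the log2 scale (limma adjusted p = 1.1e-04), FRMD6, which encodes a FERM protein, by 0.34 ± 0.05, WWC3, a relative of the LATS activator KIBRA, by 0.36 ± 0.05, and MAP4K4, a kinase that can phosphorylate LATS, by 0.26 ± 0.04. MAP4K2, a kinase of the same family, fell by 0.64 ± 0.07 (adjusted p = 3.5e-05, limma) to 4.36 ± 0.370 FPKM in si-NRDE2-2, against 6.83 ± 0.284 FPKM in si-Control libraries. The polarity gene SCRIB fell by 0.40 ± 0.06. Without si-NRDE2-2 replicate 2 or 3 the counts were 5 that rose and 3 that fell, without si-Control replicate 2 they were 6 and 3, and without si-Control replicate 3 they were 7 and 8. The counts were 16 and 8 once trends with GC content and transcript length had been taken out, a fit in which more genes passed over the whole table too (3036 upward and 3438 downward of 11569).

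The STRIPAK complex joins phosphatase PP2A to striatin scaffolds and removes activating phosphates from the STK3 and STK4 kinases. Of its 16 tested genes 3 rose and 3 fell, with a median log2 fold change of -0.0048. STK25, a kinase bound to STRIPAK, had the largest change of all 4 lists, with 17.7 ± 1.52 FPKM in si-NRDE2-2 and 34.7 ± 0.452 FPKM in si-Control libraries (SD, n = 3 each), a log2 fold change of -0.97 ± 0.06 (adjusted p = 4.2e-07, limma). Its relative MST4, now named STK26, fell by 0.45 ± 0.06, to 5.79 ± 0.453 FPKM in si-NRDE2-2 against 7.92 ± 0.141 FPKM in si-Control libraries. PPP2CA, the PP2A catalytic subunit gene, whose reads may be shared with its close copy PPP2CB, rose by 0.18 ± 0.04, PDCD10, the adaptor of these kinases, by 0.17 ± 0.05 and the striatin gene STRN3 by 0.20 ± 0.06. The call of PDCD10 was lost without si-NRDE2-2 replicate 3 or si-Control replicate 1 or 2 (limma adjusted p = 0.0551, 0.0525 and 0.0555), and that of STRN3 without si-NRDE2-2 replicate 2 or 3 or si-Control replicate 2 (limma adjusted p = 0.0590, 0.0706 and 0.0635). The number that rose was 1 without si-NRDE2-2 replicate 3 and 1 without si-Control replicate 2.

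Of 22 tested TEAD cofactors, 14-3-3 proteins and turnover factors 5 rose and 6 fell, with a median of 0.02. VGLL4, whose protein competes with YAP and TAZ for TEAD factors, rose by 0.59 ± 0.06 (adjusted p = 1.3e-05, limma), with 8.53 ± 0.428 FPKM in si-NRDE2-2 and 5.63 ± 0.0932 FPKM in si-Control libraries (SD, n = 3 each). NEDD4, a ubiquitin ligase gene, rose by 0.43 ± 0.05. The related ligase gene WWP1 fell by 0.32 ± 0.04 and SFN, which encodes the 14-3-3 protein sigma, by 0.26 ± 0.05. Without si-NRDE2-2 replicate 3 the number that rose was 3. VGLL1 was listed at 0 in all 6 libraries, and VGLL3 was under the filter on low values, at 0.387 FPKM in si-NRDE2-2 and 0.526 FPKM in si-Control libraries.

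The targets of YAP and TAZ did not rise together. A signature of 22 target genes known from many cancers holds 4 members (CTGF, AMOTL2, LATS2 and PTPN14) and 18 other genes. Of these 18, 7 rose and 5 fell, with a median log2 fold change of 0.09. Across all tested genes 20.9% rose and 23.0% fell, with a median of -0.02, so both rises and falls were more frequent among these targets. These differences in share were not tested. The list was chosen with earlier results of these data known, so nothing is read from them. CRIM1, a transmembrane protein gene, rose by 0.48 ± 0.05 (adjusted p = 2.0e-05, limma), with 56.0 ± 2.62 FPKM in si-NRDE2-2 and 40.2 ± 1.51 FPKM in si-Control libraries (SD, n = 3 each). CCDC80, a matrix protein gene, rose by 0.46 ± 0.05, NT5E, the ecto-nucleotidase CD73, by 0.43 ± 0.05, and F3, tissue factor, by 0.30 ± 0.05. The membrane repair gene MYOF fell by 0.41 ± 0.05 and the receptor tyrosine kinase gene AXL by 0.33 ± 0.04, to 156 ± 2.56 FPKM in si-NRDE2-2 against 195 ± 1.284 FPKM in si-Control libraries. CYR61 and ANKRD1, textbook targets beside CTGF and named after their values were seen, moved in opposite directions. CYR61, a relative of CTGF now named CCN1, had 583, 534 and 539 FPKM in si-NRDE2-2 and 664, 631 and 674 FPKM in si-Control libraries (log2 fold change -0.25 ± 0.06, limma adjusted p = 0.0044). ANKRD1 had 250, 248 and 250 FPKM in si-NRDE2-2 and 214, 207 and 226 FPKM in si-Control libraries (0.21 ± 0.05, limma adjusted p = 0.0050). CYR61 was lower and ANKRD1 higher in every si-NRDE2-2 library than in any si-Control library.

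**Figure D4:**
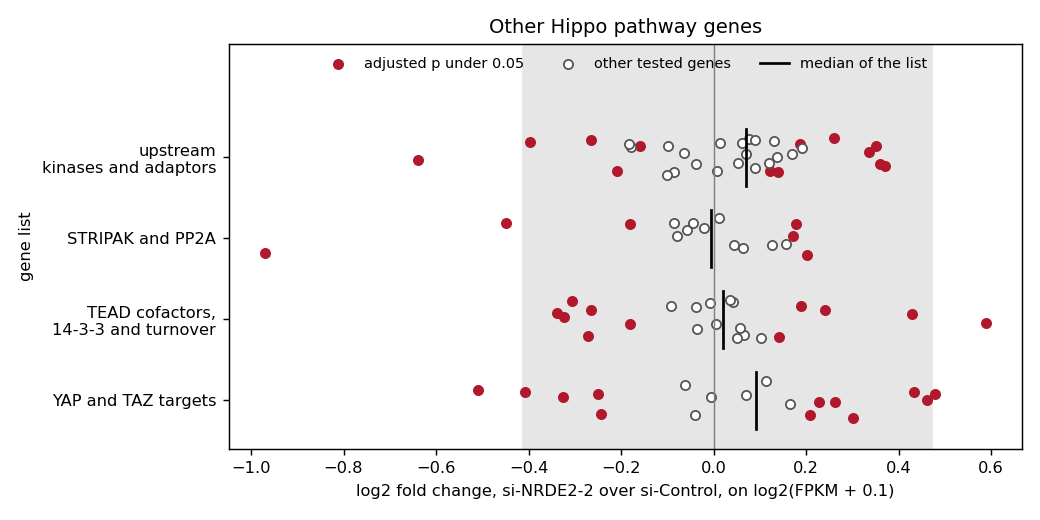
Log2 fold change, si-NRDE2-2 over si-Control, on the log2(FPKM + 0.1) scale for the tested genes of the 4 lists outside the members, with filled points for an adjusted p under 0.05 (limma), a black line at each list's median and a grey band from the 5th to the 95th percentile of all tested genes. Every list has filled points on both sides of 0, and its median lies between -0.0048 (STRIPAK and PP2A) and 0.09 (YAP and TAZ targets).

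The row TAZ, tafazzin, had 8.09, 7.18 and 6.95 FPKM in si-NRDE2-2 and 16.6, 15.4 and 16.4 FPKM in si-Control libraries. It was thus lower in si-NRDE2-2 libraries by a log2 fold change of -1.12 ± 0.06, opposite in direction to WWTR1, whose protein carries the same name.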

How the data were processed

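RNA-seq of 6 libraries (3 si-NRDE2-2, 3 si-Control) was analysed from 1 table of FPKM values deposited by the authors. STAR 2.5.1b, DESeq2 1.10.1 and build hg19 are named in the submitters' processing notes, without roles; the program behind the FPKM, its annotation and its strand setting are not given in the sources used here. FPKM totals were 448986 to 486271 per library. Another 4 columns, with values in 3 rows, were not used. Titles gave groups and replicates, and no label ties replicates to separate cultures, so the p-values reflect spread that may be technical. No scaling was added. Genes reaching 1 FPKM in 3 or more libraries, small RNAs left out, were fitted as log2(FPKM + 0.1) with limma 3.58.1 (R 4.3.3; trended, robust prior; Benjamini-Hochberg over 11782 genes; adjusted p under 0.05 called). The pseudocount understates changes of low genes. The fit was tested on simulated data drawn independently for each gene, without trends shared across a library. That checks the code and not the calls made in these data.

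Depth was estimated from steps between low values: among 2946 genes averaging up to 0.05 FPKM, 63.4% were whole multiples of 1 step (tolerance 0.02), so reads could not be recovered for nearly all genes. Transcripts came from GENCODE release 29 (GRCh38, matched for 23521 of 25365 rows), promoters from RefSeq (GRCh38.p14). All members and the 4 lists were chosen with earlier results of these data known. Named were all members, NRDE2, up to 4 called genes per list in the commoner direction and up to 2 in the other by adjusted p, and the 5 nearest genes to WWTR1 and to PTPN14; 2 genes that this rule names are not reported here. Alternatives covered pseudocount, filter, scaling, variance prior, GC and length, a replicate block, each replicate left out, and carriers of the 3′ UTR sequences left out.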

Additional observations from a re-analysis of the deposited data

How the results depend on the processing

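Leaving out a single replicate cannot move a member's log2 fold change by more than the spread between replicates. Another filter or variance prior, or the replicate block alone, cannot move it at all. Most recomputed values could thus not fail the comparison that follows, and nothing is read from its count. The 10 members' log2 fold changes moved by less than the spread between replicates in 157 of 160 recomputed values. The exceptions were WWTR1 at 1.33 with a pseudocount of 1, and AMOTL2 at -0.072 with GC and length trends removed, with or without the replicate block. With single replicates left out they ran from 1.39 to 1.47 for WWTR1, 0.86 to 1.05 for PTPN14, 0.18 to 0.36 for TEAD1, -0.36 to -0.28 for TEAD3, -0.27 to -0.16 for TEAD4, 0.04 to 0.14 for YAP1, -0.30 to -0.16 for LATS1, -0.053 to 0.0022 for LATS2, -0.12 to -0.089 for AMOTL2 and -0.016 to 0.063 for CTGF. TEAD1 was not past the threshold with no filter on low values or with libraries scaled to the same FPKM total; LATS1 was past it downward with a pseudocount of 1, a mean FPKM of at least 5 or GC and length trends removed, and AMOTL2 with quantile normalization. Numbers over all genes stayed within 1.5 times under each of 16 alternatives, the fit without carriers not being among them. With single replicates left out 1918 to 2675 rose and 2007 to 2814 fell.

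With single replicates left out, 5 to 10 upstream genes rose and 3 to 8 fell, 1 to 4 STRIPAK genes rose and 2 to 3 fell, 3 to 5 cofactor and turnover genes rose and 5 to 6 fell, and 6 to 7 targets rose and 4 to 5 fell. With GC and length trends removed, 16 upstream genes rose and 8 fell and 5 STRIPAK genes fell; with the replicate block added these were 15, 8 and 5. With carriers of the listed 3′ UTR sequences left out, 3 upstream genes rose and 3 fell, 1 STRIPAK gene rose, 1 cofactor or turnover gene rose and 4 targets rose, a fit in which carriers cannot be counted. Of 378 values of 23 other named genes, 0 reversed and 8 lost their call, among them PDCD10 with the replicate block and GC and length trends removed (log2 fold change 0.10, limma adjusted p = 0.0683) and STRN3 with libraries scaled to the same FPKM total (limma adjusted p = 0.0533). Deviations from the group means correlated at -0.122, 0.104 and -0.12 between libraries of the same replicate number (1, 2 and 3). Between libraries of different numbers the correlations ran from -0.111 to 0.168. With so few libraries these values cannot tell whether replicates were paired by culture or day. With the replicate block alone 2253 of all genes rose and 2431 fell, with the same members past the threshold. Members had at least 538 estimated fragments per library; how much of the spread between replicates is counting noise was not separated.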
